A study of Rattus norvegicus with 24 samples.

Results

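The comparison described here set the nucleus accumbens of rats that received many footshocks they could not control against that of rats that received few. The many-shock rats were the 3 whose arrays are titled saline yoked shock resistant (YSR), and the few-shock rats the 3 titled saline yoked shock sensitive (YSS). The 6 arrays were chosen by those titles from 24 arrays in all, 1 per rat. The methods describe shock-resistant rats (SR, 6 arrays) that kept taking methamphetamine when their lever presses also brought footshocks, whereas shock-sensitive rats (SS, 6 arrays) cut their intake. The yoked rats never received methamphetamine. They had saline, and each of them was shocked whenever its methamphetamine-taking partner was shocked, so that YSR rats followed the schedule of SR partners and YSS rats that of SS partners. Each of those shocks came with a saline infusion, so that the numbers of shocks and of paired infusions cannot be told apart in these groups. The remaining 6 arrays came from saline control rats without shocks (CT). All rats were male Sprague-Dawley rats, the labels give a weight and no age, and the accumbens was dissected roughly a month after the last session with shocks or drug. RNA came from individual animals, and the p-values below measure the spread between rats. The yoked titles lack a mark, (2), that stands in the titles of all other arrays and whose meaning is unstated in the sources used here. It does not separate YSR from YSS. In a comparison of a yoked group with CT, SR or SS, the mark and the group cannot be told apart.

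The nucleus accumbens is the ventral part of the striatum and receives dopamine from the midbrain as well as glutamate from the cortex, the hippocampus and the amygdala. Most of its neurons are medium spiny neurons, which use GABA and fall into a direct-pathway class with dopamine D1 receptors and an indirect-pathway class with D2 receptors and the adenosine receptor encoded by Adora2a. Footshock activates the hypothalamic-pituitary-adrenal axis, whose glucocorticoids act in the brain through the receptors encoded by Nr3c1 and Nr3c2. The genes followed below were therefore those of the receptor tyrosine phosphatases and of pyruvate dehydrogenase, of stress hormone signalling, of the spiny neurons and their transmitters, of basic cell machinery and of the other cell types that a dissection can hold.

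No gene passed the test of YSR against YSS once all genes tested were counted. Levels are log2 signals of transcript clusters, the array's probe sets for a gene or locus, and a difference of 1 is a doubling. The test was limma's moderated test, two-sided, fitted over all 24 arrays in 5 groups with Benjamini-Hochberg adjustment over 9044 clusters whose CT mean lay above that of the spiked bioB control (9.45). It called 0 of 9044 clusters (0%) at an adjusted p under 0.05, and the smallest adjusted p was 0.999904. At an unadjusted p under 0.05 there were 87 clusters (0.962%, where 5% would be counted by chance), 58 of them higher in YSR (0.641%) and 29 lower (0.321%). The direction of that split was not stable. It was 97 higher and 78 lower with quantile normalization, 58 and 101 when YSR and YSS were fitted alone, 51 and 67 when they were fitted with CT only, and 46 and 69 without YSS replicate 3. Leaving out YSR replicate 1 gave 50 clusters, YSR replicate 3 gave 189, YSS replicate 1 gave 190 and YSS replicate 2 gave 171, so that single rats moved the count in either direction. At a 1.7-fold difference with an unadjusted p under 0.05, the kind of criterion used in the study's methods, there were 8 clusters (0.0885%), 6 higher in YSR (0.0663%) and 2 lower (0.0221%). This count was 4 when YSR replicate 1 was left out, 21 when YSR replicate 3 was, and 23 when YSS replicate 2 was. All 3 YSR arrays lay above all 3 YSS arrays in 228 clusters (2.52%) and below them in 282 (3.12%), together 510 clusters (5.64%). With the array medians set equal, 350 lay above and 294 below.

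The differences were small across the genome. The median size of a difference was 0.09 on the log2 scale, the median difference was 0.04, and 90% of clusters lay between -0.22 and 0.26. Of all tested clusters, 63.3% had a difference above 0, the share to set beside the counts of signs below. The 95% confidence interval of a difference reached a median of 0.36 to either side, and in 7754 clusters (85.7%) it lay wholly within 1.7-fold in both directions. Intervals given below beside a difference are these 95% intervals, not adjusted for the number of genes, and the adjusted p of YSR minus YSS was 1 to 3 significant digits for every gene named.

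**Figure D1:**
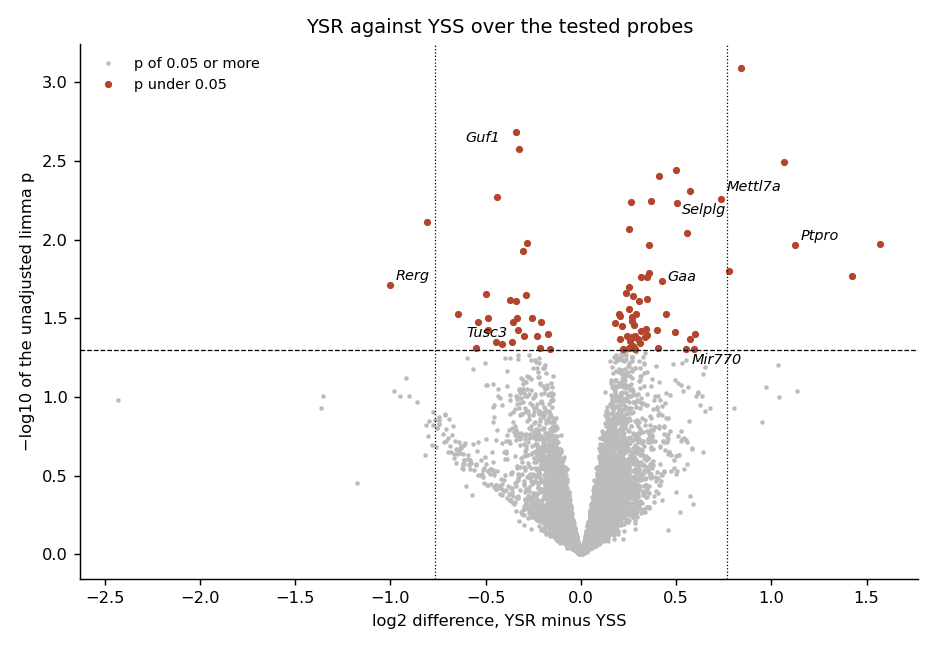
Difference of YSR minus YSS (x axis, log2) against the unadjusted p of limma's test (y axis, -log10) for the 9044 tested clusters, 1 point each. Red points are the 87 clusters at p under 0.05 (dashed line), and the dotted lines mark 1.7-fold. Ptpro and Rerg stand at the outer ends on the high and the low side among named genes above the filter.

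Of the 87 clusters, 41 matched 1 gene, 28 higher in YSR and 13 lower. The CT mean lay between the YSR and YSS means in 31 of these 41. Clusters chosen for a gap between YSR and YSS hold a CT mean between them more often through that choice alone. The share over all tested clusters is not given, and nothing is concluded from the count. Median signals over tested clusters ran from 11.71 to 11.87 on the 6 yoked arrays (11.61 to 11.89 over all 24), and medians of the negative-control probes from 5.83 to 6.01. The 95th percentile of the negative controls ran from 9.77 on YSS replicate 1 to 10.31 on YSR replicate 3.

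Ptpro gave the largest positive difference of the named genes. It encodes a receptor-type protein tyrosine phosphatase, a membrane protein with an extracellular fibronectin-like part that removes phosphate from tyrosines of other proteins, among them receptors for axon guidance. The 3 YSR arrays read 10.98, 10.20 and 9.94, against 8.998, 9.39 and 9.37 on the YSS arrays. All YSR values lay above all YSS values, and YSR replicate 1 stood above the other 2 YSR arrays. The difference of 1.12 (SE 0.403, 95% interval 0.29 to 1.96) is given with no fold, since the YSS level was not above background as described below. The CT arrays averaged 9.55 ± 0.484 (SD, n = 6) and spanned 9.07 to 10.29, which overlaps both yoked groups. Against CT, the difference was 0.83 for YSR (adjusted p = 0.999 in limma's test) and -0.29 for YSS. Without YSR replicate 1 the difference of YSR and YSS was 0.82 and no longer reached an unadjusted p under 0.05. The level is near the floor of the array. Ptpro was above the 95th percentile of the negative controls on 2 of 3 YSR arrays, on 0 of 3 YSS arrays and on 1 of 6 CT arrays. The cluster holds 300 probes on the + strand of chromosome 4, from 171251185 to 171461550 in the deposited coordinates, whose genome build is unstated in the sources used here. The study picked Ptpro for PCR from these arrays, so that its place here is not independent evidence.

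The promoters of Ptpro and of Mettl7a and Pdk4, described below, are shown because shocks raise glucocorticoids, whose receptor binds paired copies of TGTTCT or its complement AGAACA. Each line holds the 250 bases before the gene's start on its own strand in RefSeq's GRCr8 assembly, a build that may differ from that of the deposited coordinates. Capitals mark AGAACA. The Ptpro stretch (chr4:171895261-171895510, + strand) holds it once, from position -245 relative to the start, and those of Mettl7a (chr7:133330728-133330977, + strand) and Pdk4 (chr4:34568330-34568579, - strand) hold neither form. Of 33469 rat promoters of the same length, 17.5% hold the motif on either strand, and 14.1% hold AGGTCA or TGACCT, the core of the sites of many nuclear receptors, which none of the 3 does. A match of letters is a description and not a binding site.
Ptpro: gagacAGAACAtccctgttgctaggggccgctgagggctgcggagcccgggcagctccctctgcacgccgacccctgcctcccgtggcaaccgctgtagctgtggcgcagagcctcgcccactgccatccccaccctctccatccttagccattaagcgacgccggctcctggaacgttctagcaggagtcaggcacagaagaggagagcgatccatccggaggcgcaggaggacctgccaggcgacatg
Mettl7a: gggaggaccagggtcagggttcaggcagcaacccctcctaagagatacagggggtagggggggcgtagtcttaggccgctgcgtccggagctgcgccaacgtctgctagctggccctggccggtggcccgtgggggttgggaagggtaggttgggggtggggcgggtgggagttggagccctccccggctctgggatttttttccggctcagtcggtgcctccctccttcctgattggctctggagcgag
Pdk4: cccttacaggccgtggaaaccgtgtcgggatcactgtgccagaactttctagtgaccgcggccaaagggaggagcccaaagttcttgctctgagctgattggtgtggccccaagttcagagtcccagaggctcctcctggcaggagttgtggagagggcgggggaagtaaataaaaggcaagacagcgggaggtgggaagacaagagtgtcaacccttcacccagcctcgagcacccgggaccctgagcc

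Rerg, the neighbour of Ptpro, gave the largest negative difference of the named genes above the filter. It encodes a small GTPase of the Ras family, known as a growth inhibitor regulated by oestrogen. Its YSR arrays read 10.16, 11.32 and 10.88, against 12.52, 11.19 and 11.65 on the YSS arrays. The groups overlapped, with YSR replicate 1 as the lowest and YSS replicate 1 as the highest of the 6. The difference was -1.002 (95% interval -1.82 to -0.18). It was -0.69 without YSR replicate 1 and -0.63 without YSS replicate 1, and neither value reached an unadjusted p under 0.05. The CT mean was 11.29 ± 0.512 (SD, n = 6), between those of the yoked groups. Rerg lies on the - strand of chromosome 4 from 171069164 to 171176637, head to head with Ptpro across a gap of 74.5 kb. The opposite order of the neighbours was looked for in the rats outside this contrast. Over the 18 CT, SR and SS arrays, Ptpro and Rerg gave a Pearson r of -0.199 (permutation p = 0.433, 0.433 adjusted over 3 relations) and a Spearman rho of -0.143 (permutation p = 0.574, adjusted 0.574), and r was -0.26 without the 2 arrays farthest from the median. Within groups r was -0.491 in CT, -0.481 in SR and 0.0804 in SS.

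Rerg moved with the markers of medium spiny neurons. Over the same 18 arrays it followed the mean of 18 pan-spiny-neuron genes with r = 0.814 (permutation p = 6e-05, adjusted 0.00018) and rho = 0.849 (permutation p = 2e-05, adjusted 6e-05), a relation sought after the values were seen. The relation was r = 0.921 within CT, 0.952 within SR and 0.799 within SS, and 0.79 without the 2 farthest arrays. Ptpro gave r = -0.212 (permutation p = 0.402, adjusted 0.433) and rho = -0.327 (permutation p = 0.187, adjusted 0.28), with r = -0.623 within CT, -0.703 within SR and 0.187 within SS. On the yoked arrays that mean was 12.32, 12.98 and 12.72 in YSR, against 13.35, 12.58 and 12.36 in YSS, where YSS replicate 1 was the highest of the 6 and YSR replicate 1 the lowest, as for Rerg. The part of spiny neuron content in the Rerg difference was not tested. In bulk tissue, fewer cells of a type and less RNA per cell cannot be told apart.

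**Figure D2:**
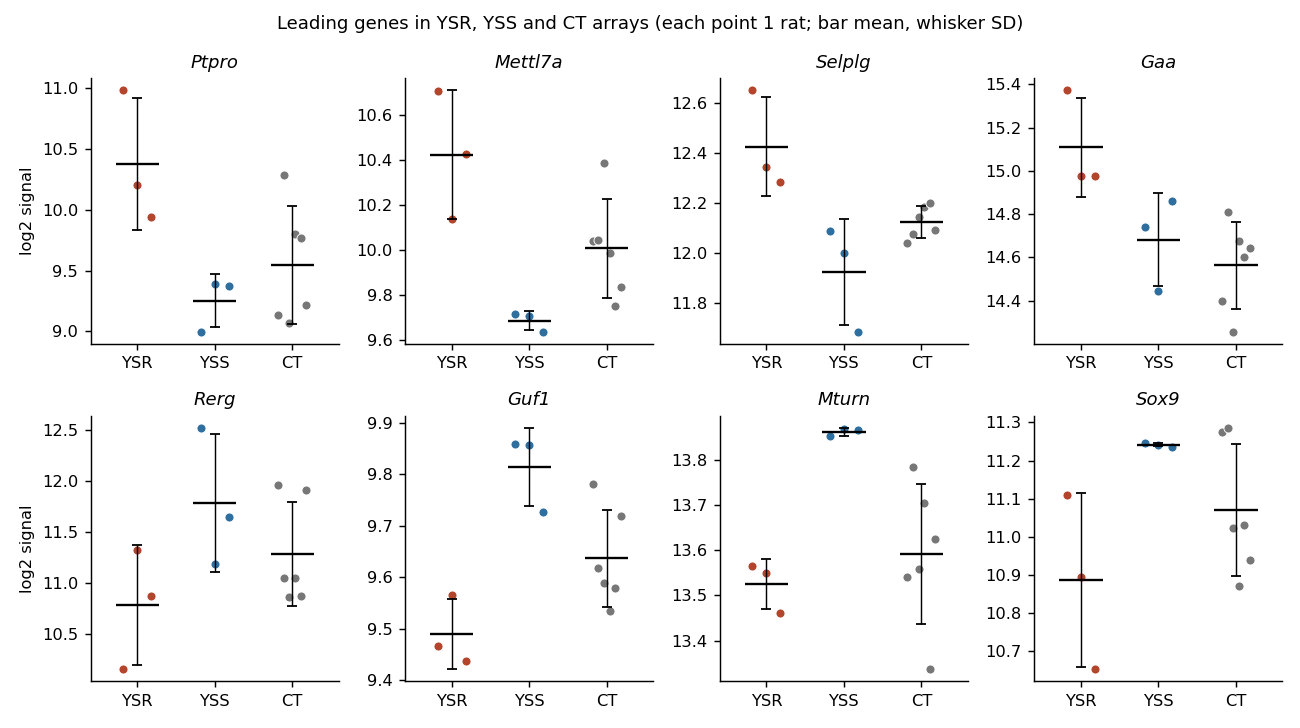
Log2 signal (y axis) of 8 genes on each YSR, YSS and CT array (points), with the mean (bar) and SD (whisker) of each group, n = 3, 3 and 6. Ptpro, Mettl7a, Selplg and Gaa are higher on all 3 YSR arrays than on all 3 YSS arrays. Guf1, Mturn and Sox9 are lower on all 3 YSR arrays, while the Rerg groups overlap.

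Among the other genes with the smallest unadjusted p on the high side were Mettl7a, Selplg, Gaa and Cox7b. Over both sides, the groups did not overlap in 20 of the 24 genes with the smallest p. Genes chosen for a small p overlap less often through that choice alone, and 5.64% of all tested clusters did not overlap. Mettl7a, a methyltransferase-like protein of the endoplasmic reticulum and lipid droplets, read 10.71, 10.14 and 10.43 in YSR, against 9.72, 9.71 and 9.64 in YSS. The groups did not overlap, and the difference was 0.74 (0.24 to 1.23). It was above the 95th percentile of the negative controls on 2 of 3 YSR, 0 of 3 YSS and 2 of 6 CT arrays, and is another gene that the study listed from these arrays. Selplg, which encodes PSGL-1, the selectin ligand of leukocytes that microglia also make, read 12.65, 12.34 and 12.28 in YSR, against 12.09, 11.999 and 11.69 in YSS. CT lay between them at 12.12 ± 0.0632 (SD, n = 6), and the difference was 0.50 (0.16 to 0.84). Gaa, the lysosomal enzyme that breaks down glycogen, read 15.37, 14.98 and 14.98 in YSR and 14.74, 14.45 and 14.86 in YSS, a difference of 0.43 (0.08 to 0.77). Here CT, at 14.56 ± 0.201 (SD, n = 6), did not lie between the yoked groups, and the difference of YSR from CT was 0.54 (adjusted p = 0.999 in limma's test). Cox7b, a subunit of cytochrome c oxidase, read 11.11, 10.77 and 10.88 in YSR and 10.60, 10.56 and 10.52 in YSS, a difference of 0.36 (0.07 to 0.65). Gaa lost its unadjusted p under 0.05 without YSR replicate 1 or YSS replicate 2, and Cox7b without YSR replicate 1. Smaller non-overlapping differences between 0.21 and 0.32 came from Slc6a17, a vesicular transporter of neutral amino acids, Arhgap44, a GTPase-activating protein of dendritic spines, Akr1a1, an aldehyde reductase, Atp9a, a phospholipid flippase, Mast2, a microtubule-associated kinase, Ptpn11, the cytoplasmic phosphatase SHP2, and Entpd4, a Golgi nucleotidase.

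On the low side, the genes above the filter with an unadjusted p under 0.05 other than Rerg included the following. Guf1, a mitochondrial GTPase of the translation machinery, read 9.47, 9.57 and 9.44 in YSR, against 9.86, 9.86 and 9.73 in YSS. CT stood between at 9.64 ± 0.0942 (SD, n = 6), and the difference was -0.32 (-0.52 to -0.13), with the smallest p on the low side among genes above the filter. Its level was low, above the 95th percentile of the negative controls on 0 of 3 YSR, 1 of 3 YSS and 0 of 6 CT arrays. Mturn, a regulator of neural progenitor differentiation known from frog embryos, read 13.57, 13.55 and 13.46 in YSR and 13.85, 13.87 and 13.87 in YSS, a difference of -0.34 (-0.64 to -0.03). Sox9, the transcription factor that marks astrocytes in the adult brain, read 11.11, 10.90 and 10.65 in YSR and 11.25, 11.24 and 11.24 in YSS (-0.35, interval -0.68 to -0.03). In both genes the YSS arrays lay within a few hundredths of each other, and an unadjusted p under 0.05 was lost without YSR replicate 3 or any single YSS array, and for Sox9 also without YSR replicate 2. Msmo1, a methylsterol oxidase of cholesterol synthesis, read 10.41, 10.26 and 10.16 in YSR and 10.65, 10.54 and 10.72 in YSS (-0.36, interval -0.71 to -0.01). Pibf1, a centrosomal protein, differed by -0.34 and Dbt, a subunit of the branched-chain ketoacid dehydrogenase, by -0.33. Wasl (N-WASP, an activator of actin branching) and Odr4 differed by -0.21 and -0.18. All 4 were without overlap, which the choice by small p favours, and 3.12% of all tested clusters lay that way. Tusc3, a subunit of the oligosaccharyltransferase, rested on 1 rat. Its YSR arrays read 12.88, 13.11 and 11.63, against 13.29, 12.87 and 13.11 in YSS, and the difference of -0.55 was -0.10 without YSR replicate 3. Of the genes described at an unadjusted p under 0.05, only Atp9a, Cym, Guf1, Mettl7a and Selplg kept it without any single array. They also kept it under every other alternative in which they were tested. Guf1 and Mettl7a lay below the filter set 1 log2 unit higher, and Cym lay below the filter itself, so that those settings did not test them.

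Ptpro belongs to the receptor-type tyrosine phosphatases, which act at the cell surface in adhesion, neurite growth and synapse formation. Of the 20 genes of the family on the list, 11 passed the filter on low signals. Ptpro is 1 of the 11 and is counted in the 10, the 4 and the 2 below. The list was chosen with earlier results of these data known. The median difference of the 11 was 0.14, beside 0.04 over all tested clusters. Of the 11, 10 differences were above 0 (63.3% of all tested clusters). In 4 the groups did not overlap (5.64% of all tested clusters), and 2 reached an unadjusted p under 0.05 (0.962% of all tested clusters). Ptprn, the IA-2 protein of secretory granule membranes, was the other of these, with 12.62, 12.45 and 12.56 in YSR and 12.44, 12.18 and 12.18 in YSS (0.28, interval 0.02 to 0.54). Its lowest YSR array lay just above its highest YSS array, and 4 of the 6 yoked arrays ended its unadjusted p under 0.05 when left out (YSR replicates 1 and 3, YSS replicates 2 and 3). Ptprs and Ptprd, receptors of the LAR family that organise synapses from the presynaptic side, differed by 0.24 and 0.25 without overlap. Ptprm, a homophilic adhesion receptor, was the only tested member with a negative difference (-0.04). Ptprd and Ptprm were named after their values were seen.

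Pdk4 was the other gene, besides Ptpro, of the PCR panel for which the yoked groups did not overlap, as in 7.39% of all 68842 clusters. It encodes a kinase that switches off the pyruvate dehydrogenase complex, the step by which carbon from glucose enters the citric acid cycle, and it is a textbook target of glucocorticoids and fasting. It read 7.33, 7.12 and 7.77 in YSR, against 6.73, 6.67 and 7.09 in YSS and a mean of 6.59 ± 0.384 in CT (SD, n = 6). The difference of YSR and YSS was 0.57 (95% interval 0.04 to 1.10), and that of YSR and CT was 0.82 (adjusted p = 0.972 over all clusters in limma's test). On none of the arrays was Pdk4 above the 95th percentile of the negative controls, it stayed under the filter, and a difference at this level gives no fold. The study picked Pdk4 and Fmo2, like Ptpro, for PCR because of a change in yoked rats on its arrays. The separation of the yoked groups in these genes is therefore not independent evidence. An unadjusted p under 0.05 was lost when YSR replicate 3, YSS replicate 1 or YSS replicate 2 was left out, where the differences were 0.39, 0.52 and 0.49. Of 12 genes for its subunits, kinases and phosphatases, 7 passed the filter, 0 of them reached an unadjusted p under 0.05, and the median difference was -0.07. All 7 intervals lay within 1.7-fold. Among them were Pdk2, another kinase of the complex (0.08), the subunits Pdha1 (-0.11) and Dld (0.09), and the phosphatase Pdp1 (-0.12).

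The remaining 4 genes of the PCR panel gave intervals that held 0. Fmo2, a flavin-containing monooxygenase, read 5.50, 5.45 and 6.12 in YSR and 5.34, 5.23 and 5.59 in YSS (0.30, interval -0.17 to 0.78). Oxt, the hypothalamic peptide oxytocin, read 5.94, 5.85 and 5.70 in YSR and 5.90, 6.27 and 5.79 in YSS, with a difference of -0.16 and an interval from -2.27 to 1.95. That interval uses the spread within all 5 groups, and the 6 yoked values themselves lie between 5.70 and 6.27. Oxtr, its receptor, read 6.27, 6.14 and 6.03 in YSR and 5.9999, 6.05 and 5.89 in YSS (0.16, interval -0.13 to 0.45). Fmo2, Oxt and Oxtr all lay under the filter. Cartpt, the CART peptide of spiny neurons, passed it with 11.14, 11.44 and 11.34 in YSR and 11.90, 11.26 and 11.28 in YSS (-0.17, interval -0.84 to 0.49), and without YSS replicate 1 the difference was 0.03. In exact two-sided permutation tests over the 6 rats, Ptpro and Pdk4 reached p = 0.1, the smallest that 3 against 3 allows. Adjusted over the 6 tests, this exact p was 0.3 for both. Oxtr, Fmo2, Oxt and Cartpt gave exact p of 0.2, 0.3, 0.5 and 0.7.

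**Figure D3:**
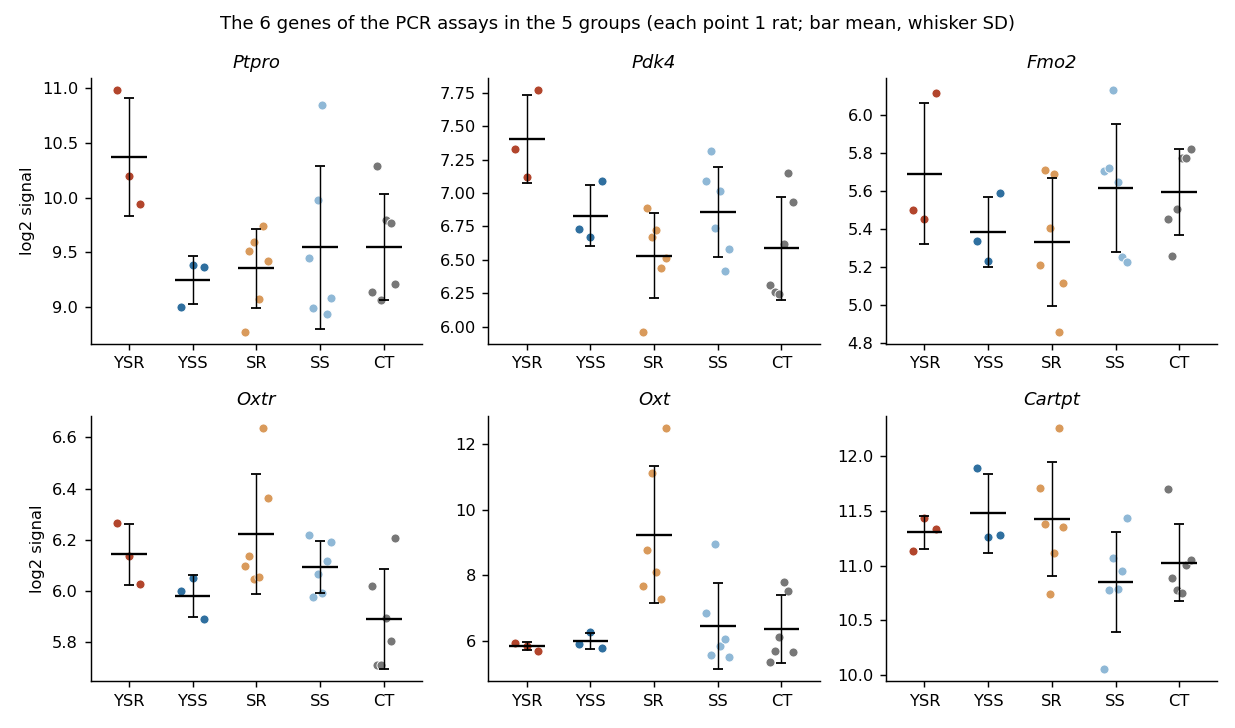
Log2 signal (y axis) of the 6 genes of the PCR panel on each array of the YSR, YSS, SR, SS and CT groups (points), with group mean (bar) and SD (whisker). Ptpro and Pdk4 separate YSR from YSS without overlap, and the yoked values of Oxt lie between 5.70 and 6.27.

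The genes of the stress hormone axis gave no difference at an unadjusted p under 0.05. Of 19 glucocorticoid-responsive genes, 5 passed the filter, with a median difference of 0.10. Sgk1, a kinase that glucocorticoids induce, read 10.83, 10.91 and 11.16 in YSR and 11.04, 10.11 and 10.46 in YSS (0.44, interval -0.42 to 1.29), with overlapping groups. Klf9 and Bcl6, transcription factors of the same response, differed by 0.10 and 0.15, and the metallothionein Mt2A by -0.11. Of 17 receptors and peptides of the axis, 3 passed the filter. The glucocorticoid receptor Nr3c1 differed by -0.11 (-0.38 to 0.16), the mineralocorticoid receptor Nr3c2 by -0.125 (-0.40 to 0.15) and the PACAP receptor Adcyap1r1 by 0.08 (-0.40 to 0.56). For Nr3c1 and Nr3c2 all 3 YSR arrays lay below all 3 YSS arrays, as they did in 3.12% of all tested clusters. The activity marker Egr1 differed by 0.02 and Homer1, a postsynaptic scaffold gene with an activity-induced form, by -0.09.

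The levels of the medium spiny neuron genes overlapped between the groups and varied within them. All 18 pan-spiny-neuron genes passed the filter, 15 had a negative difference, the median was -0.07, and none reached an unadjusted p under 0.05. Over all tested clusters, 63.3% of differences were positive. YSS replicate 1 was the highest of the 6 yoked arrays for 18 of the 18 genes, while over all tested clusters it was highest in 23.7%. YSR replicate 1 was lowest for 9 of them and YSS replicate 3 for 8, so that a low spiny neuron signal occurred in both groups. The D1 receptor Drd1 showed the same order with 11.61, 12.39 and 12.19 in YSR and 12.94, 12.03 and 11.95 in YSS (-0.25). Its companions of the direct pathway, the peptide precursors Tac1 and Pdyn, differed by -0.29 and 0.04. In the indirect pathway Drd2 differed by -0.13, Adora2a by -0.29, the orphan receptor Gpr52 by -0.37 and the enkephalin precursor Penk by 0.15. The 5 tested interneuron genes had a median of 0.42, with 3 differences above 0 and 2 below, none at an unadjusted p under 0.05, and YSS replicate 1 lowest in 3. They were calretinin (Calb2, 0.55, interval -0.30 to 1.41), the cholinergic factor Lhx8 (0.49), the choline transporter Slc5a7 (0.42), neuropeptide Y (Npy, -0.10) and somatostatin (Sst, -0.13). Maob and Maoa, which break down monoamines, differed by -0.23 and -0.15.

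Basic cell machinery gave differences near 0. Cox7b was the only one of 34 oxidative phosphorylation genes at an unadjusted p under 0.05, the median was 0.04, and all 34 intervals lay within 1.7-fold. Of 34 ribosomal protein genes none reached that p, 25 had a negative difference and the median was -0.03, beside 63.3% positive differences over all tested clusters. The 23 proteasome genes had a median of 0.05, and Psmb7, Psmd11 and Psmd2, subunits of the core and of the regulatory particle, lay above all YSS arrays on all 3 YSR arrays (2.52% of all tested clusters did). The 10 clock genes had a median of 0.03, the 10 heat shock genes -0.01, the 13 GABA-A and GABA-B receptor genes 0.06, and the 10 ionotropic glutamate receptor genes -0.01, with all 10 intervals of the last within 1.7-fold. Among 19 potassium channel genes Kcnj10, the astrocytic Kir4.1 channel, read 10.05, 10.51 and 10.34 in YSR and 10.19, 9.83 and 9.84 in YSS (0.35, interval 0.02 to 0.67), with overlap, and 4 of the 6 yoked arrays ended its unadjusted p under 0.05 when left out (replicates 2 and 3 of each group).

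Markers of glia and of tissue outside the accumbens moved in part with the groups. All 4 tested microglial markers had positive differences (63.3% of all tested clusters did), with a median of 0.19. Csf1r, the receptor that keeps microglia alive, read 10.80, 10.82 and 10.72 in YSR and 10.69, 10.58 and 10.22 in YSS (0.28, interval 0.000673 to 0.56), and P2ry12 and Cx3cr1 differed by 0.23 and 0.05. The unadjusted p of Csf1r was no longer under 0.05 when any of 16 of the 24 arrays was left out. The summed signal of 11 microglial markers ran from 13.39 to 13.49 (log2) in YSR, 13.30 to 13.33 in YSS and 13.30 to 13.48 in CT. Of the 11, 3 were above the 95th percentile of the negative controls on all 6 yoked arrays, and Aif1, C1qa, C1qb, C1qc, Itgam, P2ry12, Tmem119 and Trem2 were on none. Selplg moved with this list, whose part in its difference was not tested. Oligodendrocyte markers had 8 positive differences of 9 and a median of 0.16, with summed signals of 16.54 to 16.86 in YSR, 16.39 to 16.77 in YSS and 16.56 to 17.04 in CT. Astrocyte sums overlapped at 16.40 to 16.52 in YSR, 16.37 to 16.50 in YSS and 16.23 to 16.59 in CT. Of 10 astrocyte markers, 6 were above the 95th percentile of the negative controls on none of the yoked arrays. These were Aldh1l1, Aqp4, Fgfr3, Gfap, Gjb6 and S100b. The same held for 3 of 12 oligodendrocyte markers, Aspa, Gjb1 and Mbp.

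Blood and choroid plexus sums did not overlap between the yoked groups, by narrow gaps and at levels within or below the range of CT. In 2.52% of all tested clusters the YSR arrays lay above the YSS arrays in the same way. The blood sum was 16.11 to 16.25 in YSR, 15.44 to 16.02 in YSS and 15.88 to 16.67 in CT, carried by the haemoglobin gene Hba-a1 (0.49, interval -0.06 to 1.05), and the choroid plexus sum was 13.32 to 13.66 in YSR, 12.91 to 13.31 in YSS and 13.52 to 13.85 in CT. Of 6 blood markers, 5 were above the 95th percentile of the negative controls on none of the yoked arrays (Alas2, Hbb, S100a8, S100a9 and Slc4a1). The choroid sum rested on Enpp2 (0.36, unadjusted p = 0.504 in limma's test). This autotaxin gene, which oligodendrocytes also express, was the only tested choroid member of 10. The other 9, among them Ttr, the defining choroid gene, were above the 95th percentile of the negative controls on none of the yoked arrays, and the part of either tissue in the differences above was not tested. Cortical excitatory markers varied within both groups, as Slc17a7, the glutamate transporter of cortical terminals, read 10.63, 7.51 and 11.17 in YSR and 9.38, 7.68 and 10.86 in YSS. Septal markers did too, as Zic1 read 12.86, 11.48 and 11.99 in YSR and 11.04, 11.34 and 13.50 in YSS.

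**Figure D4:**
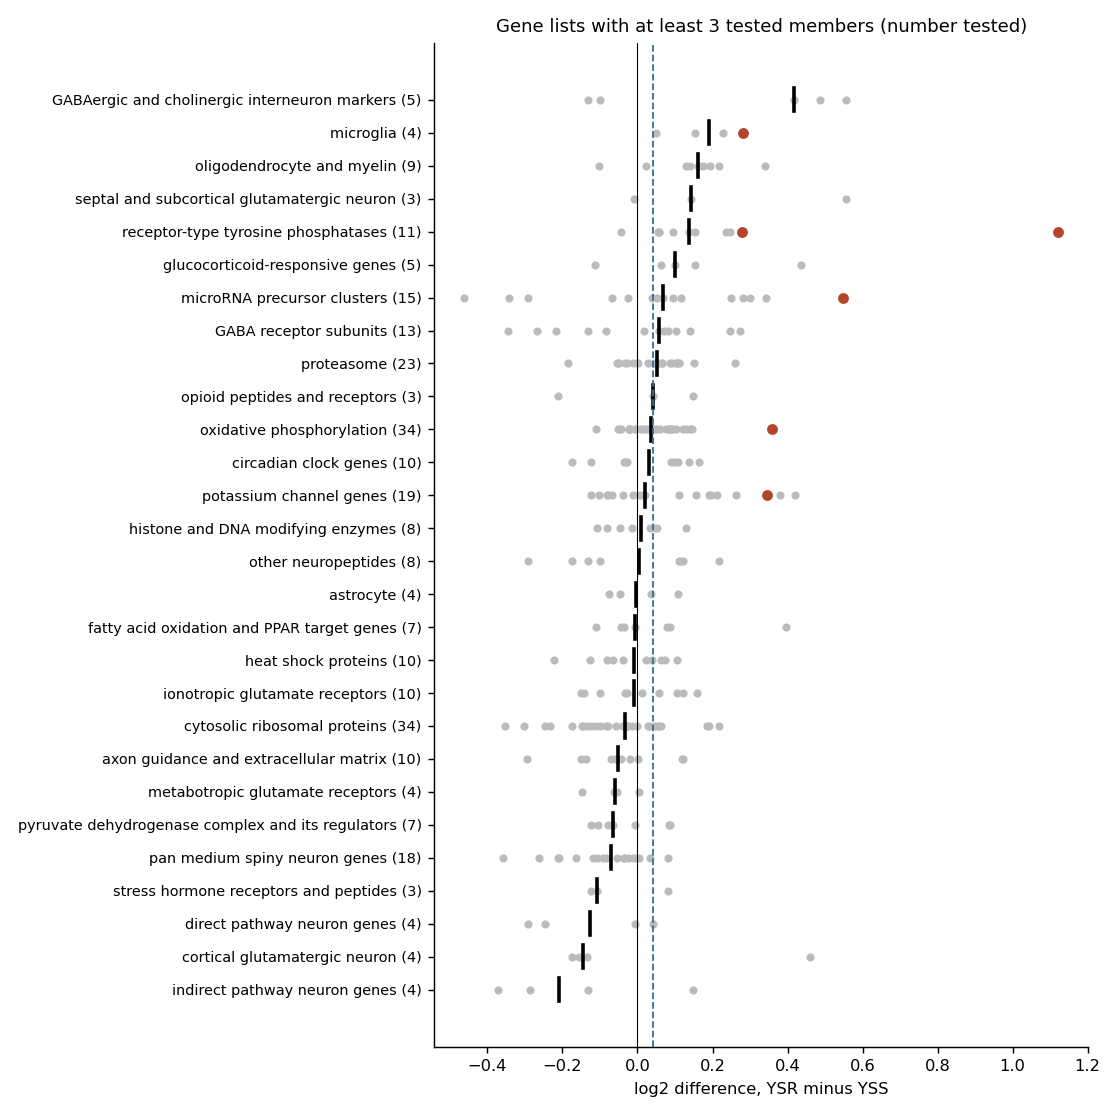
Difference of YSR minus YSS (x axis, log2) for the tested members (grey points) of each gene list with at least 3 of them, with the list's median (black mark) and the median of all tested clusters (blue dashed line, 0.04). Red points are members at an unadjusted p under 0.05, all to the right of 0.

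Over all lists, 298 members were tested and 6 reached an unadjusted p under 0.05 (0.962% of all tested clusters), all higher in YSR, namely Ptpro, Ptprn, Kcnj10, Cox7b, Mir770 and Csf1r. This count was 1 without YSR replicate 1 and 11, 9 higher and 2 lower, without YSS replicate 1. Without YSS replicate 3 it was 2 higher and 3 lower, and with quantile normalization 7 higher and 2 lower. In 246 of the 298 (82.6%) the interval lay within 1.7-fold.

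Of 373 microRNA clusters on the array, which do not tell precursors from mature microRNA, 15 passed the filter. The mature sequences of the 3 with the smallest p are shown with the seed, bases 2 to 8 by which a microRNA finds its targets, in capitals, from RefSeq's GRCr8. They are miR-770 (chromosome 6, both arms), miR-100 (chromosome 8) and miR-384 (chromosome X), and no seed is shared.
rno-miR-770-5p: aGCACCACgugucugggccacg
rno-miR-770-3p: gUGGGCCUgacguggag
rno-miR-100-5p: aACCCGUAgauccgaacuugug
rno-miR-384-5p: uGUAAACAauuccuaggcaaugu

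Mir770, which lies in an intron of the imprinted noncoding gene Meg3, read 11.48, 11.23 and 11.73 in YSR and 10.78, 11.32 and 10.70 in YSS (0.55, interval 0.00028 to 1.10). The groups overlapped through YSS replicate 2, its unadjusted p was no longer under 0.05 when any of 18 of the 24 arrays was left out, and the CT mean was 11.48. That mean includes CT replicate 5 at 12.42, with the other CT arrays at 11.15 to 11.55. Mir100 read 9.40, 9.18 and 9.41 in YSR and 9.21, 10.09 and 10.09 in YSS (-0.46, interval -0.99 to 0.06) and was above the 95th percentile of the negative controls on none of them. Mir384 differed by -0.34 (-0.87 to 0.18) and Mir598 by 0.34 (-0.42 to 1.10). Both Mir770 and Mir598 were among the transcripts the study listed from these arrays. The median over the 15 was 0.07, and YSS replicate 1 was the lowest yoked array in 8 of them.

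The 8 clusters past 1.7-fold at an unadjusted p under 0.05 were Ptpro, Rerg and 6 that matched no gene. The array annotation leaves 4 of these unassigned, on chromosomes 1, 4, 5 and 18, with differences of 0.78, 1.42, 1.57 and 0.84. These 4 varied together over the 18 CT, SR and SS arrays (pairwise r of 0.463 to 0.974, a description). The other 2 are noncoding clusters on chromosomes 2 and 14, with differences of 1.06 and -0.81. Over all 68842 clusters, low ones included, 0 passed the adjusted test (smallest adjusted p 0.38) and 1890 had an unadjusted p under 0.05 (2.75%).

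Cym, the gene of the milk-clotting protease chymosin, gave the smallest p of the genes seen under the filter. It read 5.67, 5.91 and 6.16 in YSR, against 8.44, 7.09 and 8.08 in YSS and a mean of 7.31 in CT (-1.96, interval -2.89 to -1.03). Stoml3, a stomatin-like membrane protein of sensory neurons, read 6.82, 7.13 and 7.27 in YSR and 7.86, 7.99 and 8.50 in YSS (-1.05, interval -1.98 to -0.12). On none of these arrays was either gene above the 95th percentile of the negative controls, and both were chosen after their values were seen.

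The partners that took methamphetamine give a parallel contrast, SR against SS. Those rats were sorted by their response to the shocks, differed in drug intake, and brought on the shocks by their own lever presses. In SR against SS, the number of shocks, the drug intake and that response cannot be told apart. The difference of the 2 contrasts passed the adjusted test in 0 of 9044 clusters (0%, smallest adjusted p 0.876) and had an unadjusted p under 0.05 in 226 (2.5%), 151 of them more positive in the yoked pair and 75 more negative. Ptpro, with 1.12 for YSR minus YSS and -0.19 for SR minus SS, differed between the contrasts by 1.32. SS replicate 4 read 10.85 for Ptpro, above YSR replicates 2 and 3, and the other SS arrays read 8.93 to 9.98. Rerg gave 0.15 for SR minus SS, and Pdk4 gave -0.33. The smallest p on the positive side among named genes belonged to Selplg, where the contrasts differed by 0.61, and Ucp2, a mitochondrial uncoupling protein, gave 0.66. Ptpro, Rerg, Pdk4, Selplg and Ucp2 all had an unadjusted p under 0.05 for the difference. They were named for YSR minus YSS, which is part of that difference, for the p of the difference or as PCR genes. Their p here is therefore no separate evidence. On the negative side the smallest p among named genes belonged to Msmo1 (-0.62) and Guf1 (-0.34), besides Cops5, a subunit of the COP9 signalosome (-0.37), Marchf5, a mitochondrial ubiquitin ligase (-0.45), and Cdo1, the cysteine dioxygenase (-0.60). Oxt, under the filter, gave -2.95, with 2.79 for SR minus SS and -0.16 for YSR minus YSS. Its yoked values, 5.70 to 6.27, lay near the medians of the negative controls, and its SR values ran from 7.28 to 12.51. Mettl7a gave 0.48 for SR minus SS as well, and its 2 contrasts differed by 0.25, short of an unadjusted p under 0.05.

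Across genes, which are not independent replicates, the 2 contrasts were nearly unrelated over all tested clusters (r = 0.00389, Spearman rho = -0.0735) and weakly related over the 3693 clusters matched to 1 gene (r = 0.239, rho = 0.264). The r over matched clusters was 0.0812 without YSR replicate 1 and 0.121 without YSS replicate 2. Of the 87 clusters at an unadjusted p under 0.05, 50 had the same sign in SR minus SS (57.5%, against 43.8% of all tested clusters). The 2 contrasts share no arrays.

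**Figure D5:**
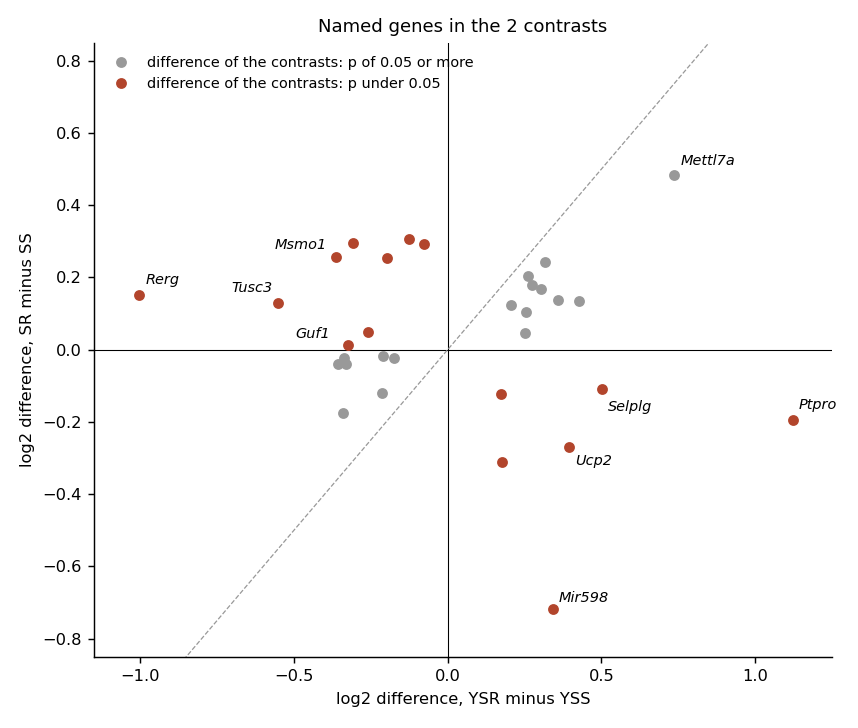
Difference of SR minus SS (y axis, log2) against YSR minus YSS (x axis, log2), with the line of equality (dashed). Shown are the tested genes named for a small p in YSR minus YSS or in the difference of the contrasts. Pdk4 and Oxt, under the filter, are not shown. Red points are genes whose contrasts differ at an unadjusted p under 0.05, and their number depends on that choice of genes. Ptpro lies far to the right near 0 on the y axis, and Mettl7a lies in the upper right.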

How the data were processed

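The authors deposited a log2 signal for each transcript cluster and array of the Affymetrix rat transcriptome array, made from total RNA of individual rats. The submitters' processing notes name Affymetrix Expression Console. How background, normalization and summarisation were done, and on which genome build, is unstated in the sources used here. Another table by the authors holds bi-weight group averages on the log2 scale, used only to check the group labels, and group SDs, fold changes, ANOVA p-values and FDR p-values, which were not used.

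Each array had 68842 clusters, and 1153 of its 1738 control rows were negative controls. No pair of arrays was identical. Groups came from the titles. Clusters with a CT mean above that of bioB (9.45) were tested. limma 3.58.1 in R 4.3.3 was fitted to the 24 arrays in 5 groups with no block, and the contrasts were YSR minus YSS, SR minus SS, their difference, and each yoked group minus CT. All tests were two-sided, with Benjamini-Hochberg adjustment. The code was tested on simulated data. The number of arrays limits the precision. Names were given only to clusters with 1 gene symbol on the chromosome of that gene in RefSeq's table (3693 of the 9044 tested). The rule named at most 12 genes in each direction by smallest unadjusted p and as many past 1.7-fold, the 6 PCR genes, at most 4 genes of a list, at most 6 in each direction for the difference of contrasts, and the pyruvate dehydrogenase list. Permutation tests over samples used Python 3.11.15, with 100000 resamples for correlations. The arrays, genes and lists were chosen with earlier results of these data known. Alternatives were no filter and a filter 1 log2 unit higher, 1 cluster per gene, YSR and YSS alone with and without moderation, CT with the yoked arrays, quantile normalization, equal array medians, array weights, a replicate block and leaving out each array.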

Additional observations from a re-analysis of the deposited data

Results flagged for a closer look

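Of 51 gene and group combinations with 4 to 10 arrays, 4 held an array that stood apart from the rest of its group by Dixon's criterion (0.625 of the group's range for 6 arrays), and chance gives about 1 in 20. All 4 are single CT arrays, so that they touch the comparisons with CT and the shared spread of the fit, but not the YSR and YSS values. Msmo1 was 10.26 on CT replicate 3, with the other CT arrays at 10.63 to 10.72 (gap 0.797 of the range). Ptprn was 12.49 on CT replicate 1, with the others at 12.07 to 12.20 (0.695). Mir770 was 12.42 on CT replicate 5, with the others at 11.15 to 11.55 (0.684). Cartpt was 11.70 on CT replicate 1, with the others at 10.75 to 11.06 (0.677).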

How the results depend on the processing

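The count of 0 clusters at an adjusted p under 0.05, for YSR minus YSS, over all clusters and for the difference of contrasts, was the same under every alternative run and without any single array. The difference of contrasts could not be computed where SR and SS were left out. The 87 clusters at an unadjusted p under 0.05 became 1890 with no filter (713 higher, 1177 lower), 159 with YSR and YSS alone (58 of them higher), 222 without moderation (82 and 140), 175 with quantile normalization (97 and 78), 325 with array weights (254 and 71) and 50 to 190 without 1 array. The split was 51 higher and 67 lower with CT and the yoked arrays only, and 46 and 69 without YSS replicate 3. The 8 clusters at the study's criterion became 51 with no filter, 4 with the higher filter, 2 with 1 cluster per gene, 21 with YSR and YSS alone, 18 with CT and the yoked arrays, 14 with array weights and 4 to 23 without 1 array. Non-overlapping clusters were 8.68% with 1 cluster per gene. The r of 0.239 with SR minus SS was 0.151 with no filter, 0.415 with array weights and 0.0812 to 0.373 without 1 array. The 6 list members at that p became 3 with the higher filter and 1 to 11 without 1 array, and the 2 PCR genes 1 without moderation and 1 to 2 without 1 array. Cartpt, at -0.17, ranged from -0.28 to 0.0337 without 1 array and was above 0 without YSS replicate 1. Of 1264 recomputed values for 35 named genes, 1062 kept their direction and side of the threshold and 200 fell short of it.

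YSR and YSS share replicate numbers 1 to 3. Same-numbered arrays gave correlations of deviations of -0.0754, 0.337 and 0.385. YSR replicates 2 and 3 correlated best with the YSS array of the same number, and YSR replicate 1 with YSS replicate 3. So few values cannot decide whether the numbers pair the rats. With the replicate block, the 5-group fit gave 94 clusters and 1 PCR gene at an unadjusted p under 0.05, and YSR and YSS alone gave 374 (250 higher, 124 lower), 20 at the study's criterion and 12 list members. The cause of these shifts was not tested. Low signal limits Ptpro, Mettl7a, Guf1, Mir100, Pdk4, Stoml3 and Cym, which lay near the negative controls, and on the yoked arrays also Fmo2, Oxt and Oxtr.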
